A study of Mus musculus with 6 samples.

Results

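The variable genes of the T-cell receptor alpha chain (Trav) were followed in the RNA of splenic Tregs with and without Zfp335. They were taken as the rows whose symbol begins with Trav, which gave 128 of the 32285 rows of the count table. Tregs, the CD4+CD25+ T cells that restrain immune responses, were sorted from the spleens of C57BL/6 mice, and 3 libraries were labelled WT and 3 KO. Per the methods, ERCre mice (WT) and ERCre Zfp335 fl/fl mice (KO) both carried a Cre recombinase that tamoxifen switches on in the cells that express it (the promoter is not given in the sources used here), and 6-week-old mice of both groups received 3 injections of 10 mg/mL tamoxifen and were sacrificed on day 7. The labels call the controls wild-type littermates and do not mention ERCre in them. Nothing in the labels says that the libraries of a group came from separate animals, so the p values measure the spread between these libraries, which may be technical.

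A T cell builds its alpha chain in the thymus by joining 1 V gene to 1 J gene (Traj), and the joined exon is spliced to the constant gene Trac. A mature T cell and its daughters keep that V gene, so in a mixed population the relative abundance of each V transcript reflects which V genes the cells carry and how strongly each is transcribed. In C57BL/6 mice a stretch of the V locus is present in further copies, and a gene in these copies has the letter d or n after its family number. Some V genes, with dv in the name, can also be joined in the delta chain of gamma-delta T cells. Trav11 is the V gene of the invariant NKT cell receptor, and Trav1 that of the MAIT cell receptor. In bulk RNA, fewer cells carrying a gene and less RNA of it per cell cannot be told apart.

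All 128 symbols were found in the GENCODE annotation of GRCm38, on the plus strand of chromosome 14 between positions 52427928 and 53977678, and 108 of them are annotated as V genes and 20 as V pseudogenes. The rows fall into 23 families, with 55 rows without a copy letter, 39 d copies and 34 n copies. Many copies are nearly the same in sequence. Of the 128 genes, 75 shared at least 50% of their 50-base stretches with another gene, and these rows held on average 63.8% of all Trav counts. How the counting assigned a read that matches 2 copies is not given in the sources used here, so the value of such a single row is uncertain, and sums over copies are given for the sets that hold the leading and the called genes, and sums over all families.

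A pair of copy sets carries the calls described below, and the coding part of their second exon is shown. Differences between copies outside this part are not shown. The sequences come from GENCODE transcripts, run 5′ to 3′, and lie on the plus strand of chromosome 14 (GRCm38) at chr14:53757643-53757921 for Trav13-4-dv7, chr14:53072996-53073274 for Trav13d-4, chr14:53363828-53364106 for Trav13n-4, chr14:53461447-53461738 for Trav7-4 and chr14:52770101-52770392 for Trav7d-4. Capitals mark the bases that differ from the first sequence of each set.
Trav13-4-dv7: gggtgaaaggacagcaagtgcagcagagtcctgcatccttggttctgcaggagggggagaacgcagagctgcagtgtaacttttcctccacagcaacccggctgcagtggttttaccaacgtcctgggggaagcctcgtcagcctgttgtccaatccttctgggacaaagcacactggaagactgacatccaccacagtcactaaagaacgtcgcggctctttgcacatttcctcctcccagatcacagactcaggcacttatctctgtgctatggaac
Trav13d-4: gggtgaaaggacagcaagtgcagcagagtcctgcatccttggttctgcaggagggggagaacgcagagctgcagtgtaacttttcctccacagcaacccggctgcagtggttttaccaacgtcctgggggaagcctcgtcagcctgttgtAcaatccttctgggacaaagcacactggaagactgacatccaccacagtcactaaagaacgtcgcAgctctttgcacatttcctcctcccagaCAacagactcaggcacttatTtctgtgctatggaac
Trav13n-4: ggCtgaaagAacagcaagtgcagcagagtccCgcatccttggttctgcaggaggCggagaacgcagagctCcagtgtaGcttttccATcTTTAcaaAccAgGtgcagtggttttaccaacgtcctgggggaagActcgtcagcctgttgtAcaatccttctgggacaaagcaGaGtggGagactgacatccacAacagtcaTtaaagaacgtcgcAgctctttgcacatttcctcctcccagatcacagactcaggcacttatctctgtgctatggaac
Trav7-4: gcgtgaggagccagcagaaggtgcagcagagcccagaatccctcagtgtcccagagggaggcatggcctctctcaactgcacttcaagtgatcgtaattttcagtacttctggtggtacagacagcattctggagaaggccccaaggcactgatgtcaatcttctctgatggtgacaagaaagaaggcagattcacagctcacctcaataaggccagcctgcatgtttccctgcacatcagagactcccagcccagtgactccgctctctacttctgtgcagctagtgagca
Trav7d-4: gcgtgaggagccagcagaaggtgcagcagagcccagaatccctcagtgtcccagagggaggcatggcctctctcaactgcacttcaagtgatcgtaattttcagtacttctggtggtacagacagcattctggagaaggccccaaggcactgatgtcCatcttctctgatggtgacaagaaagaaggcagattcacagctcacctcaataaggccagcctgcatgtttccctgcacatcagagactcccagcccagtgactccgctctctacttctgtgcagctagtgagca
Over these bases Trav13-4-dv7 and Trav13d-4 were 98.2% identical, with 5 of 279 bases different, while Trav13n-4 differed from Trav13-4-dv7 at 23 bases. Trav7-4 and Trav7d-4 differed at 1 of 292 bases. Of their 50-base stretches, Trav13-4-dv7 shared 77.1%, Trav7d-4 78.1%, Trav7-4 75.1%, Trav13d-4 53.2% and Trav13n-4 15.9% with other genes, so the Trav13n-4 row was the least exposed to reads of other copies.

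The libraries held 133283969 to 209041812 counts, with WT replicate 3 the shallowest. Zfp335, the deleted gene, had 124.2, 120.7 and 114.9 CPM in the WT libraries and 14.95, 14.3 and 15.13 in the KO libraries (CPM, counts scaled to a common library size), a log2 fold change of -3.02 ± 0.05 (SE; edgeR adjusted p = 1.2e-13). Foxp3, the lineage factor of Tregs, was at 1135 ± 16.4 CPM (SD, n = 3) in WT and 1053 ± 8.25 in KO and was called lower (edgeR adjusted p = 0.0163). Of the 6 Treg markers 2 were called higher, Ctla4 (log2 fold change 0.65, edgeR adjusted p = 9.56e-09) and Tnfrsf18 (0.12, adjusted p = 0.0434), and 2 lower, Foxp3 and Il2ra (-0.15, adjusted p = 0.00658). The defining markers of other cells were not at 0, and those of B cells (4 of 4 tested), red cells (3 of 3) and myeloid cells (4 of 5) were called lower in KO. Their summed levels were 38.5 to 42.3 CPM in WT and 19.1 to 20.9 in KO for B cells, 26.3 to 30.8 and 1.31 to 1.59 for red cells, and 37.6 to 43.2 and 20.1 to 21.9 for myeloid cells. CD8 and NK cell markers had 0 of 2 and 0 of 3 members called. Over all 17307 tested genes 12.0% were called higher and 12.1% lower, against which 0 calls in lists this short say little. The part of these cells in the Trav values was not tested.

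The part of the RNA taken by Trav transcripts overlapped between the groups. Summed over all 128 rows they gave 44415, 44681 and 30644 counts in the WT libraries and 43729, 50909 and 46187 in the KO libraries. Scaled to the library, this was 243.7, 234.6 and 227.2 CPM in WT and 245.2, 246.1 and 240.0 CPM in KO. The difference of 8.61 CPM did not pass the test (exact permutation test, two-sided, p = 0.2, where 3 against 3 libraries cannot go below 0.1). Trac itself was at 532.8 ± 21.5 CPM in the WT and 500.6 ± 7.31 CPM in the KO libraries (SD, n = 3) and was not called (edgeR log2 fold change -0.09, adjusted p = 0.077). Set against Trac, the Trav sum was 0.4638, 0.4545 and 0.4079 counts per Trac count in WT and 0.4835, 0.4995 and 0.478 in KO, so that all 3 KO libraries lay above all 3 WT libraries (difference of 0.142 on the log2 scale, exact p = 0.1). Usage was therefore measured as the share of a gene in all Trav counts. Where a scaling to Trac changed the call of a family, or of a gene chosen by the naming rules, the value is given. Trav8n-2, outside those rules, was not called with the Trav total (log2 fold change 0.44, edgeR adjusted p = 0.094) but was called with Trac.

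As single rows, Trav7d-2 and Trav7-4 had the largest shares in both groups, although both share much of their sequence with other copies (99.7% and 75.1% of 50-base stretches) and the order changed once copies were summed. Counts were above 0 in all 6 libraries for 113 of the 128 rows, and 6 rows, all annotated as pseudogenes, were at 0 in all libraries, where 3 counts would have been a share of 0.00589% to 0.00979%. The pseudogene rows together held 0.765% ± 0.05 of Trav counts in WT and 0.752% ± 0.0728 in KO (SD, n = 3). The 8 genes with the largest mean share held 21.8% to 24.7% of Trav counts in a library. Trav7d-2 came first, with shares of 4.38%, 3.8% and 3.42% in WT and 4.16%, 4.59% and 4.12% in KO. Trav7-4 followed, with 3.4%, 3.24% and 3.2% in WT and 3.41%, 3.34% and 3.55% in KO. In both genes the groups overlapped. The exact (Clopper-Pearson) 95% interval was at most ± 0.205 percentage points for Trav7d-2 and ± 0.199 for Trav7-4, which covers counting error only.

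The next 5 genes were Trav3d-3, Trav4n-4, Trav14n-1, Trav4-4-dv10 and Trav12-2, with mean shares of 2.95%, 2.9%, 2.79%, 2.53% and 2.51%. Trav12d-2, the eighth, ranged more widely between libraries, with 2.43%, 1.72% and 1.73% in WT and 2.32%, 2.7% and 2.07% in KO. These shares are of counts and so depend on length. Divided by exon length, 7 of the 8 were still among the first 8, and Trav12d-2 moved to place 16. Of the 8, Trav4-4-dv10 was the 1 whose groups did not overlap, with 2.3%, 2.55% and 2.34% in WT and 2.57%, 2.64% and 2.8% in KO, and it was not called (edgeR log2 fold change 0.15, adjusted p = 0.237). Over all tested genes, 36.3% had groups that did not overlap when divided by the Trav total. Trav4-4-dv10 was called when Trac counts replaced the Trav total as the library size (log2 fold change 0.29, adjusted p = 0.0308), as was Trav3d-3 (0.30, adjusted p = 0.0215).

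Summed over copies with the same family and index, the Trav4-4 set came first, with 5.76% ± 0.255 of Trav counts in WT and 5.99% ± 0.187 in KO (SD, n = 3). The Trav3-3 set held 4.97% ± 0.136 and 5.35% ± 0.381, and the Trav7-4 set 4.85% ± 0.316 and 5.41% ± 0.117. The Trav12-2 set held 4.67% ± 0.607 and 5.22% ± 0.335, the Trav14-1 set 4.95% ± 0.305 and 4.55% ± 0.133, and the Trav7-2 set, to which Trav7d-2 belongs, 4.51% ± 0.593 and 4.97% ± 0.276. In the Trav4-4, Trav3-3, Trav12-2, Trav14-1 and Trav7-2 sets the groups overlapped, and none of the 6 sets was called.

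**Figure D1:**
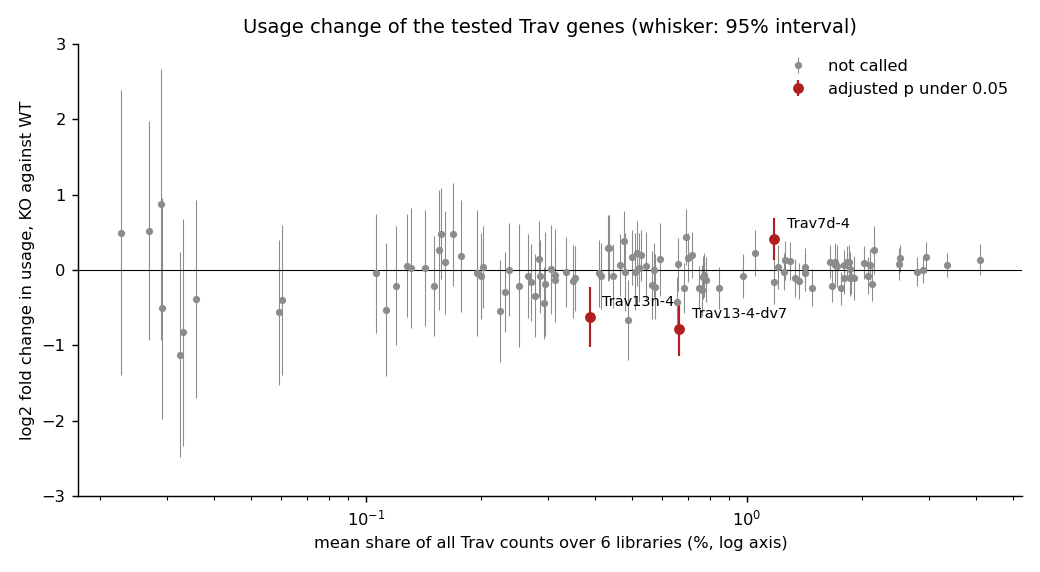
Log2 fold change in usage (KO against WT, vertical axis) of the 113 tested Trav genes against their mean share of all Trav counts in percent (horizontal log axis), where whiskers are 95% intervals and red points passed an adjusted p of 0.05. Intervals widen toward low shares, and 3 genes are red: Trav7d-4 above 0, Trav13n-4 and Trav13-4-dv7 below it.

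Few V genes changed their usage. Of 113 tested genes 1 rose and 2 fell (edgeR quasi-likelihood test with the Trav total as library size, adjusted p under 0.05 over 17307 genes), while 6.83% of all tested genes were called higher and 13.0% lower in the same fit. At an unadjusted p under 0.05 there were 7 Trav genes. The median log2 fold change over the Trav genes was -0.02 in usage, against -0.05 over all genes tested, and 52 were above 0 and 61 below. Relative to all RNA, 1 Trav gene was called higher and 2 lower, where 12.0% of all genes were called higher and 12.1% lower, and these were the same 3 genes. The groups did not overlap in 19 of the 113 genes, or 16.8%, while 36.3% of all genes had groups that did not overlap on the same scale. Most changes could be bounded. The 95% interval lay within 2-fold in either direction for 95 of the 113 genes and within 1.5-fold for 63. Of the 38 genes with a mean share of at least 1%, which held 72.1% of Trav counts, 37 lay within 1.5-fold.

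The gene with the lowest adjusted p was Trav13-4-dv7, a V gene of family 13 that can also be used in the delta chain (chromosome 14, 53757356 to 53757921). Its shares were 0.768%, 0.835% and 0.933% in WT and 0.409%, 0.558% and 0.476% in KO. All KO libraries lay below all WT libraries. It fell by 0.79 ± 0.16 on the log2 scale (SE; 95% interval -1.14 to -0.43; edgeR adjusted p = 0.00573), from 286 to 373 counts in the WT libraries to 179 to 284 in the KO libraries. This call held under each of the 11 alternatives run, with log2 fold changes between -0.91 and -0.65.

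Its n copy Trav13n-4 fell as well, with shares of 0.495%, 0.457% and 0.45% in WT and 0.332%, 0.277% and 0.31% in KO. The groups did not overlap (log2 fold change -0.62 ± 0.18, SE, edgeR adjusted p = 0.0324), and the call was lost when WT replicate 1 or 2 or any KO replicate was left out (adjusted p up to 0.128) and with Trac as the library size (0.0892). Trav13n-4 shared 15.9% of its 50-base stretches with other genes, most of them with Gm30214. The d copy Trav13d-4 had shares of 0.272%, 0.286% and 0.199% in WT and 0.194%, 0.238% and 0.199% in KO, and these groups overlapped (log2 fold change -0.29, edgeR adjusted p = 0.451).

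Summed over the 3 copies, Trav13-4 made up 1.54%, 1.58% and 1.58% of Trav counts in WT and 0.935%, 1.07% and 0.985% in KO. The sum does not depend on how counted reads were split among the 3 copies. Reads left uncounted or given to genes outside the set are not covered by it. The WT libraries lay close together and above all KO libraries. The copy sum fell by 0.64 ± 0.11 on the log2 scale (SE; edgeR adjusted p = 0.00159), or to 0.64 of the WT share. It was the 1 set called among 49 tested sums of copies with the same family and index. The share of all genes called was not counted for the fit of copy sums. In the fit of single rows, 6.83% of all genes were called higher and 13.0% lower. Summing by copy set was chosen after the values of single rows had been seen. The Trav13-4 sum stayed called with each library left out in turn, with log2 fold changes between -0.70 and -0.60.

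The gene that rose was Trav7d-4, the d copy of Trav7-4 (chromosome 14, 52769753 to 52770392). Its shares were 1.16%, 0.906% and 0.969% in WT and 1.23%, 1.44% and 1.37% in KO, so that the lowest KO library lay just above the highest WT library. The log2 fold change was 0.41 ± 0.13 (SE, edgeR adjusted p = 0.0448), and the call was lost without WT replicate 2 or 3 or without any KO replicate (adjusted p up to 0.2). Trav7-4, which differs from it at 1 base of the exon shown, was at 3.4%, 3.24% and 3.2% in WT and 3.41%, 3.34% and 3.55% in KO (log2 fold change 0.06, edgeR adjusted p = 0.605). The n copy Trav7n-4 was at 0.651%, 0.51% and 0.509% in WT and 0.839%, 0.489% and 0.554% in KO. Summed over the 3 copies the shares were 5.21%, 4.66% and 4.68% in WT and 5.47%, 5.27% and 5.48% in KO, which did not overlap but were not called (log2 fold change 0.15, edgeR adjusted p = 0.147).

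**Figure D2:**
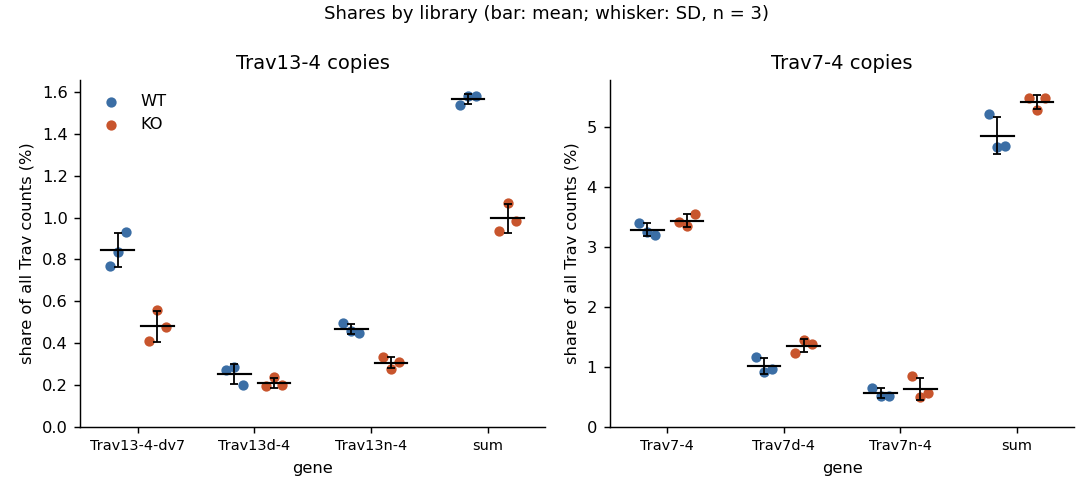
Share of all Trav counts in percent (vertical axis) for the 3 copies of Trav13-4 (left) and of Trav7-4 (right) and for their sum, where points are single libraries, bars are means and whiskers are SD (n = 3). The summed Trav13-4 share lies at 1.54% to 1.58% in WT and 0.935% to 1.07% in KO, and the copy Trav7d-4 lies higher in KO while Trav7-4 overlaps.

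Among the genes with a share of at least 1%, the increases after Trav7d-4 were those of Trav12d-2 (log2 fold change 0.26, edgeR adjusted p = 0.246) and Trav11d (0.23, adjusted p = 0.289), and neither was called. Leaving out WT replicate 1 put Trav12d-2 past the threshold (log2 fold change 0.46, edgeR adjusted p = 0.0143). The largest decreases were those of Trav7-5, Trav10 and Trav14-1. Trav7-5 was at 1.97%, 1.96% and 1.81% in WT and 1.5%, 1.61% and 1.75% in KO (log2 fold change -0.24, edgeR adjusted p = 0.104). Trav10 was at 1.45%, 1.81% and 1.54% in WT and 1.37%, 1.39% and 1.33% in KO (-0.24, edgeR adjusted p = 0.172). Trav14-1 was at 1.74%, 1.72% and 1.94% in WT and 1.52%, 1.57% and 1.55% in KO (-0.21, edgeR adjusted p = 0.154). The groups did not overlap in these 3 genes, which were picked as the largest decreases, and none passed the test. Without any such choice, 16.8% of tested Trav genes and 36.3% of all genes had groups that did not overlap. Trav7d-4, Trav12d-2 and Trav6-6 varied most between libraries among the genes at 1% or more, with a highest share 1.59, 1.57 and 1.51 times the lowest. For Trav6-6 this came from WT replicate 3, at 2.44%, with the other 5 libraries between 1.62% and 1.95%. All 50-base stretches of Trav6-6 are shared with other genes, and the Trav6-6 set as a whole was at 2.86% ± 0.577 in WT and 2.68% ± 0.059 in KO (SD, n = 3).

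Neither V gene of an invariant receptor was called. Trav11, the invariant NKT gene, had 52, 48 and 48 counts in WT and 50, 70 and 61 in KO, or 0.107% to 0.157% and 0.114% to 0.138% of Trav counts (log2 fold change 0.06, 95% interval -0.63 to 0.74, edgeR adjusted p = 0.928). Its copy Trav11d, which is 99.7% identical over the same exon, held 0.991%, 0.801% and 1.14% in WT and 1.16%, 1.16% and 1.05% in KO. All stretches of Trav11 and Trav11d are shared, and with the pseudogene Trav11n the set held 1.23% ± 0.181 in WT and 1.35% ± 0.0926 in KO (SD, n = 3), with groups that overlapped. Trav1, the MAIT gene and the most 5′ of the locus, held 0.342%, 0.367% and 0.473% in WT and 0.494%, 0.403% and 0.53% in KO (log2 fold change 0.30, 95% interval -0.14 to 0.73, edgeR adjusted p = 0.337). Trav1 shared no 50-base stretch with another gene. Zbtb16, the transcription factor of invariant T cells, averaged 3.69 ± 0.40 CPM in the WT and 3.45 ± 0.24 CPM in the KO libraries (SD, n = 3) and was not called (edgeR adjusted p = 0.51).

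The same 6 families were the largest in both groups. Family 7 was the largest, with 18.2%, 16.4% and 15.7% of Trav counts in WT and 17.3%, 17.7% and 17.5% in KO. Families 14, 6, 12, 9 and 4 followed, with mean shares of 13.7%, 11.5%, 10.4%, 10.2% and 8.65%, and with family 7 they made up 71.6% of Trav counts on average. In all 6 of these the groups overlapped. Family 7 was at 16.8% ± 1.3 in WT and 17.5% ± 0.221 in KO, and family 12 at 10.2% ± 1.08 and 10.6% ± 0.687 (SD, n = 3). The WT libraries ranged from 9.09% to 11.2% in family 12 and from 9.73% to 10.8% in family 9, so these neighbours did not differ beyond their spread.

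Of 21 tested families 0 were called higher and 1 was called lower, where 6.87% of all rows of that fit were called higher and 13.1% lower. Family 13 had 6.41%, 7.45% and 7.33% in WT and 6.25%, 6.09% and 5.76% in KO, without overlap but with WT replicate 1 close to KO replicate 1. It fell by 0.22 ± 0.07 on the log2 scale (SE, edgeR adjusted p = 0.0497). The call was lost without WT replicate 2 or 3 or any KO replicate (adjusted p up to 0.217) and with Trac as the library size (log2 fold change -0.09, adjusted p = 0.418). The 3 Trav13-4 copies held 22.2% of the counts of family 13 in WT. The other 9 family 13 rows together were at 4.87%, 5.87% and 5.75% in WT and 5.32%, 5.02% and 4.77% in KO, which overlapped (exact p = 0.3), and none of the 9 was called (lowest edgeR adjusted p = 0.24). Their mean share differed by -0.463 points between KO and WT, against -1.03 for the whole family. The copies were set apart after their fall had been seen, so this split cannot show that the other rows were unchanged.

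Family 3 was at 5.43%, 5.44% and 5.7% in WT and 5.74%, 6.2% and 6.35% in KO (log2 fold change 0.15, edgeR adjusted p = 0.141). It was called higher with Trac as the library size (0.28, adjusted p = 0.00614), as was family 4 (0.20, adjusted p = 0.0262). Families 10 and 17 also had groups without overlap, at 2.82% ± 0.125 and 2.52% ± 0.171 and at 0.668% ± 0.0077 and 0.765% ± 0.0638 (WT and KO, SD, n = 3), and were not called (edgeR adjusted p = 0.219 and 0.354). Groups did not overlap in 4 of the 23 families, where 36.3% of all genes had groups without overlap. The 95% interval lay within 1.5-fold in either direction for 17 of the 21 families.

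**Figure D3:**
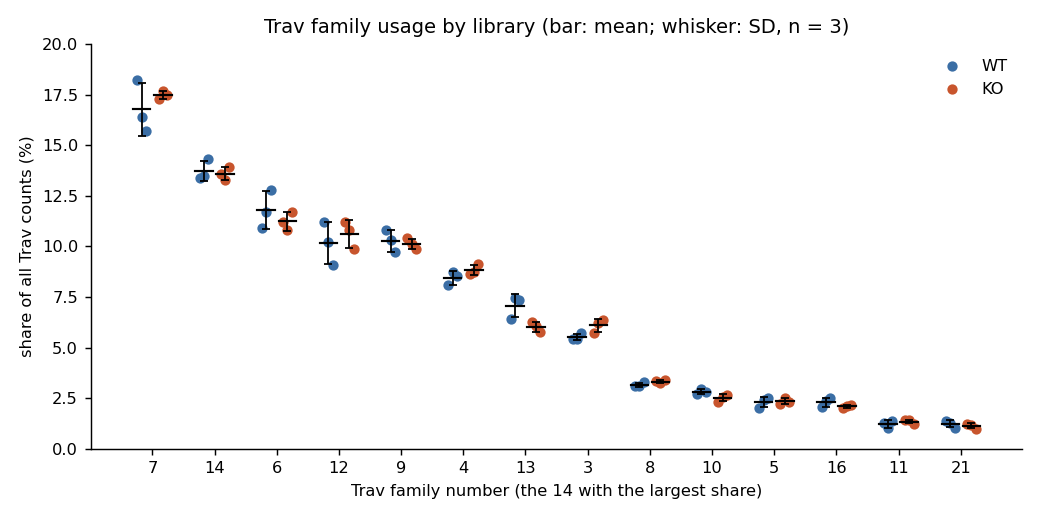
Share of all Trav counts in percent (vertical axis) of the 14 largest Trav families (horizontal axis, ordered by mean share), where points are single libraries, bars are means and whiskers are SD (n = 3). Family 7 leads with 15.7% to 18.2%, and family 13 lies at 6.41% to 7.45% in WT and 5.76% to 6.25% in KO.

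The d copies took a slightly larger part of the counts in KO. Their summed share was 24.78%, 23.47% and 24.17% in WT and 25.2%, 26.97% and 26.07% in KO, a difference of 1.94 percentage points. The rows without a copy letter held 51.8%, 52.96% and 52.34% in WT and 50.76%, 50.41% and 51.2% in KO, a difference of -1.58 points. In both classes the groups did not overlap, and the exact permutation p was 0.1, the smallest that 3 against 3 libraries can give. The n copies overlapped, at 23.42% to 23.56% in WT and 22.62% to 24.04% in KO (exact p = 0.4). All 3 class sums depend on how reads that match several copies were assigned, which is not known. Trav7d-2 and Trav3d-3, the d rows with the largest shares, shared 99.7% and 100% of their 50-base stretches with other genes. Within the classes, usage was above 0 on the log2 scale for 18 of 35 tested d copies, 13 of 30 n copies and 21 of 48 rows without a letter. Among the 47 rows without a letter that lie 3′ of the n block, the summed share was 49.4% ± 0.64 in WT and 47.7% ± 0.293 in KO (SD, n = 3), and the 8 rows without a letter 5′ of the d block held 3.0% ± 0.313 and 3.06% ± 0.104.

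Position along the locus was summarised as the mean order of the V genes, counted from 1 at the 5′ end and weighted by share. It was 71.83, 72.8 and 71.81 in WT and 71.01, 70.44 and 70.99 in KO, so the KO libraries lay 1.33 places further from the J genes, without overlap (exact permutation p = 0.1). With families summed and each placed at the mean order of its rows, the difference was -0.19 places (exact p = 0.3). This summing removes any shift between copies of the same family, so it cannot show the part of read assignment, which was not tested.

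**Figure D4:**
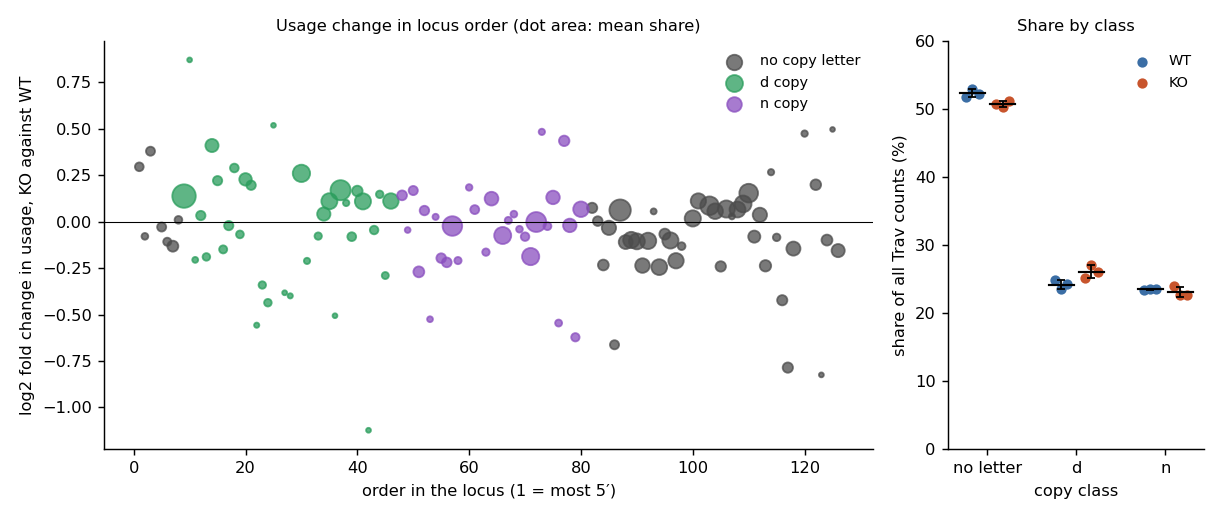
Left, log2 fold change in usage (KO against WT) of the 113 tested Trav genes in their order along the locus, coloured by copy class, with the dot area growing with the mean share. Right, share of all Trav counts in percent of each copy class by library, with means and SD (n = 3), where d copies lie at 23.47% to 24.78% in WT and 25.2% to 26.97% in KO.

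The evenness of usage overlapped between the groups. The effective number of genes, the number of equally used genes that would give the same Shannon entropy, was 74.5, 75.7 and 76.6 in WT and 74.6, 73.6 and 73.5 in KO (75.6 ± 1.08 and 73.9 ± 0.575, SD, n = 3). The groups overlapped (exact permutation p = 0.2). The highest share of a single gene in any library was 4.59%, that of Trav7d-2 in KO replicate 2.

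The usage profiles of the KO libraries lay closest together. The Jensen-Shannon distance, which is 0 for identical profiles, was 0.0603 to 0.0675 between KO libraries, 0.0748 to 0.098 between WT libraries and 0.0688 to 0.096 between libraries of different groups. Both distances of WT replicate 3, the shallowest library, to the other WT libraries were larger than that between those libraries. The mean distance between groups exceeded that within groups by 0.00863 (exact permutation test, one-sided, p = 0.1, the smallest possible). This rested on single libraries, with 0.0196 without WT replicate 1 but 0.00531, 0.00199 and 0.00422 without KO replicate 1, 2 or 3 (exact p = 0.2, 0.3 and 0.2). The smallest distance between groups, 0.0688 between WT replicate 1 and KO replicate 1, was below each of the distances between WT libraries. Across the 113 tested genes the log2 mean shares of the groups had a Pearson correlation of 0.987, which is across genes that are not independent replicates.

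Replicate libraries varied more in usage than counting error alone would give. Over Trav genes with an expected count of at least 5 in each library, the median chi-square per degree of freedom was 4.2 in WT and 2.99 in KO, where counting error alone gives about 1. The edgeR fit includes this spread.

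Other genes of the receptor and its surroundings were read from the fit relative to all RNA. In the fit over all genes, 12.0% were called higher and 12.1% lower. Of the 7 constant and CD3 genes 0 rose and 1 fell, close to that background, with a median log2 fold change of -0.05 against -0.0042 over all genes. Cd3g, a chain of the CD3 complex, was the one that fell (339.7 ± 17.4 CPM in the WT and 313.7 ± 4.17 in the KO libraries, SD, n = 3, edgeR adjusted p = 0.0401), and Cd3e was at 305.4 ± 2.35 and 297.7 ± 2.36 CPM (adjusted p = 0.377). Of 12 tested gamma-delta genes (15 were listed) 0 rose and 6 fell, with a median log2 fold change of -0.43 (edgeR adjusted p under 0.05), where 12.1% of all genes fell. Trdc, the constant gene of the delta chain, was at 8.04 ± 0.76 CPM in WT and 5.45 ± 0.46 in KO (log2 fold change -0.56, edgeR adjusted p = 0.000686). Trdv4, a delta V gene, had 97, 102 and 117 counts in WT and 12, 33 and 53 in KO, without overlap (log2 fold change -1.88, edgeR adjusted p = 0.00411). Sox13, a transcription factor of gamma-delta T cells, fell by 1.95 on the log2 scale (edgeR adjusted p = 3.72e-06), and Tcrg-C1, Tcrg-C2 and Tcrg-C4 fell by 0.43, 0.43 and 0.37 (edgeR adjusted p between 0.00261 and 0.0325).

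These gamma-delta values stand beside Trav13-4-dv7, which both chains can use. The 10 dv genes together held 8.25%, 8.49% and 8.19% of Trav counts in WT and 8.13%, 8.44% and 8.25% in KO, and the groups overlapped. Without Trav13-4-dv7, the other 9 held 7.48%, 7.65% and 7.26% in WT and 7.72%, 7.89% and 7.78% in KO. These groups did not overlap, with KO higher. Trav13-4-dv7 was left out after it had been called lower in the same shares. With the 10 together level, the rest must then lie higher in KO, so this gives no separate test. None of the 9 was called, with log2 fold changes between -0.51 and 0.52. Trav13n-4, which fell too, has no dv in its name. The part of gamma-delta cells in the Trav13-4-dv7 values was not tested.

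Of 10 tested genes for the joining of receptor genes 0 rose and 3 fell, where 12.0% of all genes rose and 12.1% fell. They were Rag1, a subunit of the recombinase, at 18, 55 and 17 counts in WT and 0, 0 and 8 in KO (edgeR adjusted p = 0.014), and Lig4 and Xrcc6, of the DNA end-joining machinery (log2 fold change -0.24 and -0.18, edgeR adjusted p = 0.0295 and 0.0476). Rag2, the partner of Rag1, was at 0 in all libraries. Among the genes of invariant T cells, Slamf6, a surface receptor, fell (log2 fold change -0.15, edgeR adjusted p = 0.00399). Of the 5 other genes of chromosome 14 listed as neighbours of the alpha locus 2 rose and 2 fell (12.0% and 12.1% of all genes), with Dad1, which lies beside Trac, at 118.9 ± 3.66 and 123.3 ± 6.73 CPM and not called (edgeR adjusted p = 0.466). Abhd4 and Tox4 rose (log2 fold change 0.31 and 0.12, edgeR adjusted p = 0.0039 and 0.0266), and Sall2 and Mettl3 fell (-0.19 and -0.14, edgeR adjusted p = 0.0283 and 0.0275).

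Genes of activation, proliferation and homing moved in both directions. Ccr7, a homing receptor of resting T cells, rose by 0.91 (edgeR adjusted p = 5.24e-10). Mki67 and Top2a, both of dividing cells, fell by 0.40 and 0.36 (edgeR adjusted p = 0.015 and 0.000312), and Icos, a costimulatory receptor, fell by 0.21 (edgeR adjusted p = 0.00152). Cd8a, a CD8 T-cell gene, had 108, 66 and 61 counts in WT and 92, 101 and 59 in KO and was not called (edgeR adjusted p = 0.877).

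Rows of single J genes of the same chain varied more between libraries than V gene rows of like depth. The 60 Traj rows summed to 1786 to 2733 counts per library, against 30644 to 50909 for the Trav rows. How reads of joined V and J genes were counted is not given, so these rows are an uncertain measure of J usage. Some Traj rows were far apart between libraries of a group. Traj27 had 291, 221 and 223 counts in WT and 7, 11 and 286 in KO. Traj37 had 156, 141 and 6 counts in WT and 24, 173 and 153 in KO. Traj26, at 176, 147 and 120 in WT and 153, 180 and 167 in KO, and Traj2, at 114, 118 and 76 and at 80, 119 and 101, were even. Among rows with a mean of 20 to 300 counts, the highest share over the 6 libraries was at least 5 times the lowest in 18 of 38 Traj rows (1 further row was at 0 in a library) and in 0 of 58 Trav rows, where the largest ratio was 3.37 and the median 1.7.

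Grouped by number, the Traj rows from 41 upward, which lie nearest the V genes, held 16.14%, 19.17% and 14.78% of Traj counts in WT and 29.17%, 19.95% and 18.59% in KO. Those from 21 to 40 held 36.63%, 36.65% and 35.89% in WT and 24.96%, 31.23% and 40.4% in KO, and those of 20 and below 47.24%, 44.17% and 49.33% and 45.86%, 48.82% and 41.01%. The groups overlapped in all 3 classes (exact permutation p = 0.2, 0.4 and 0.6), and the differences depended on single KO libraries. From 41 upward the difference of 5.87 percentage points was 2.57 without KO replicate 1. From 21 to 40 the difference of -4.19 was -0.576 when KO replicate 1 was left out and -8.29 without KO replicate 3, and for 20 and below that of -1.68 turned to 0.428 without KO replicate 3.

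**Figure D5:**
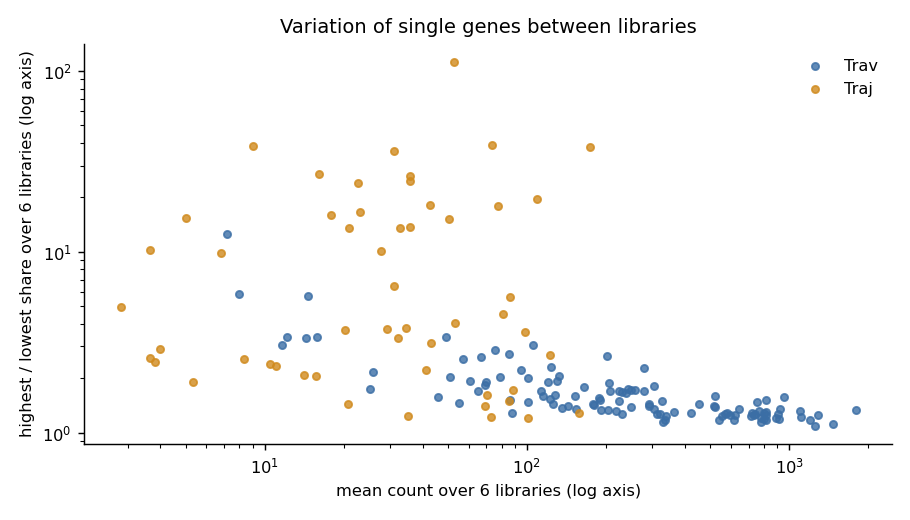
Highest share over the 6 libraries divided by the lowest (vertical log axis) against the mean count (horizontal log axis) for Trav and Traj genes with counts above 0 in all libraries. At mean counts of 20 to 300, Trav ratios reach 3.37 and Traj ratios 112.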

How the data were processed

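Bulk RNA-seq counts per gene symbol were analysed for 6 libraries, 3 per group. The authors deposited raw counts. The submitters' notes name HISAT2, DESeq2 and mm10, and the counter, the annotation and the strand setting are not given in the sources used here. Groups and replicate numbers came from the sample titles. Counts were fitted in R 4.3.3 with edgeR 4.0.16 (robust quasi-likelihood test, TMM scaling, filterByExpr, Benjamini-Hochberg over 17307 genes, call at adjusted p under 0.05). For usage, the Trav total of each library was the library size. Families and copies were also summed. SE and 95% intervals come from the F statistic. Shares were tested by exact permutation in Python 3.11.15. DESeq2 1.42.0, other scalings, no filter, the replicate block and leaving out each library were alternatives. Scripts were tested on simulated data. Positions and sequences are from GENCODE M21 (GRCm38, called mm10). The 50-base stretches were matched on either strand, and 2 V genes of the locus with other symbols were left out by the rule. The named genes were the 8 with the largest share, those called, the 3 largest increases and decreases and the 3 most variable at a share of 1% or more, Trav11, Trav11d, Trav1, all families, Trac, Trdc, Cd3e, Dad1, Zbtb16, Cd8a, Zfp335, Foxp3 and called list members, of which 2 are not reported here. Copies and J genes compared with them, and low rows, were named after their values were seen. Members and lists were chosen with earlier results of these data known.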

Additional observations from a re-analysis of the deposited data

How the results depend on the processing

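Trav13-4-dv7 stayed lower under all 11 alternatives of the usage fit. The Trav13-4 sum stayed lower under its 7, the replicate block and leaving out each library. DESeq2, no filter and other library sizes, including Trac, were not run for the sum. Single Trav genes called in usage numbered 3, with 1 to 6 when a library was left out (6 without WT replicate 1) and 5 with Trac as library size, and called in level 3, with 1 to 5. Families called numbered 1, with 0 to 1 when a library was left out and 2 with Trac. Copy sums called numbered 1, with 1 to 5 (5 without WT replicate 1). The replicate block left 2 genes called in usage and 2 in level, and lost Trav7d-4 in usage (adjusted p = 0.0587) and Trav13n-4 in level, while the calls of family 13 and the Trav13-4 sum held. The labels do not pair same-numbered libraries, and these did not deviate together over all genes (r = 0.0285, 0.00817 and 0.0326); over the 113 Trav genes r was 0.14, 0.381 and -0.0882. Group differences that moved by more than the replicate SD were the Trav sum (0.142 relative to Trac, against 0.0524 on the log2 scale), the log2 effective number (-0.0549 by the inverse Simpson index and -0.0111 by families, against -0.0329) and the mean order (-0.186 by families, against -1.33). Within that SD, but by over 1.5 times, moved the Trav sum (0.0184 by library size only, 0.0279 to 0.0784 as each library was left out), the n share (-0.818 to -0.107 points), the profile distance (0.00199 to 0.0196, and 0.00562 by families), the Traj shares (2.57 to 7.87, -8.29 to -0.576 and -3.48 to 0.428 points) and the mean Traj number (1.09 to 2.16, against 1.67). Log2 fold changes in usage that turned sign, none past the threshold, ranged, as each library was left out, from -0.033 to 0.026 for Trav4n-4, -0.079 to 0.028 for Trav14n-1, -0.237 to 0.033 for Trav6-6, -0.053 to 0.195 for Trav11, -0.053 to 0.015 for family 9, -0.015 to 0.127 for family 12 and -0.026 to 0.019 for family 14. With Trac as library size they were 0.133, 0.111, 0.032, 0.113, 0.129 and 0.076 for Trav4n-4, Trav14n-1, Trav6-6 and families 9, 14 and 6, and scaled to rows without a letter 0.043 for Trav4n-4 and 0.021 for Trav14n-1. The cause was not tested. Rows below a share of about 0.1% had intervals too wide to bound a 2-fold change. So had some rows above it, among them Trav13-4-dv7, Trav6-4 (mean share 0.488%) and Trav13n-4 (0.387%).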
